A study of Homo sapiens with 5 samples.

Results

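Genes of oxidative stress defence, iron storage and carbonyl reduction were described in MDA-MB-231, a human breast cancer cell line without hormone receptors or HER2 amplification. They are GCLM, TXNRD1, PRDX1, OSGIN1, EPHX1, AKR1C1, AKR1C2, AKR1C3, FTH1 and FTL, chosen by symbol as 10 of the 10596 genes in the table of scaled counts used here. Each gene was represented by its RefSeq transcript row with the highest mean over the 5 libraries. Of the 10 genes, 8 reached the floor of 50 scaled counts in every comparison, and AKR1C1 and AKR1C2 did not in any. Scaled counts are the authors' read counts per transcript on a common scale.

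The series asked how gene expression differs when SET or CIP2A, inhibitors of the tumour suppressor phosphatase PP2A, are silenced or when SET is antagonized. There were 5 libraries, 1 per group. The SET antagonist OP449 was applied at 1 µM for 12 hours, and its control library had PBS for 12 hours. The siRNA libraries are siSET (siRNA against SET), siCIP2A (siRNA against CIP2A) and their control siRNA, siNT. The treatment protocol gives 48 hours for the siRNAs, although the label of siCIP2A itself names no time. PBS is used below as a second control for siSET and siCIP2A, but it differs from them in time and in treatment, so it is not matched. All cells were grown in IMDM with serum, and a single line was used.

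NRF2, the transcription factor encoded by NFE2L2, is held by KEAP1 for degradation in unstressed cells. When oxidants or electrophiles modify KEAP1, NRF2 accumulates, pairs with small MAF proteins and binds antioxidant response elements in genes for glutathione synthesis, thioredoxin reduction and detoxification. Ferritin is a shell of heavy (FTH1) and light (FTL) chains that stores iron. Both ferritin genes are NRF2 targets, and translation of their mRNAs is held back when iron is scarce by proteins that bind an iron responsive element near the 5′ end. The AKR1C enzymes reduce ketosteroids, prostaglandins and other carbonyls, and in many human cells they are among the strongest NRF2 targets.

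Promoter windows from RefSeq on GRCh38.p14, 250 bases before to 50 after a gene's start, were given for 8 of the 10 genes, as 12 windows. They were searched on both strands for TGACNNNGC, the core of the antioxidant response element. It was found in 4 of the 12 windows, from GCLM, TXNRD1 and EPHX1, and in 13.3% of all 35116 windows. The AP-1 motif TGACTCA, which can overlap that core, was found in the OSGIN1 window alone, overlapped no core there, and was in 4.95% of all windows. The 250 bases before the start of GCLM and of the downstream TXNRD1 window are shown because both genes were higher in OP449 than in PBS. Capitals mark the core, which lies on the strand opposite to the gene in both, as TGACTAAGC in GCLM and TGACAAAGC in TXNRD1.
GCLM, chr1:93909431-93909680, minus strand: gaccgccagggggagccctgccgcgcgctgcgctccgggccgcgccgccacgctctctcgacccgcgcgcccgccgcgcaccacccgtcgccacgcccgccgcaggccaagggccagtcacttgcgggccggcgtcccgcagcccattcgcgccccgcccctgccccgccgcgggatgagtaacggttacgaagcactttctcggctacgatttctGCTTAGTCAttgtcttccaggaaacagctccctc
TXNRD1, chr12:104286782-104287031, plus strand: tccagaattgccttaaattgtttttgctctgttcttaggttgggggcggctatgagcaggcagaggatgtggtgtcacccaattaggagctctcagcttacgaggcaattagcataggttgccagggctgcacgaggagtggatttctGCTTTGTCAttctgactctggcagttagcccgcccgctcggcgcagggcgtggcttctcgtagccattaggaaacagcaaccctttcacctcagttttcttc
The iron responsive elements of the ferritin mRNAs are shown from GENCODE v29 transcripts, since they mark what FTH1 and FTL share. Capitals mark the match to a C, any 5 bases and then CAGTGN, searched on the mRNA strand in the first 200 bases. That motif is loose, and 7.47% of protein-coding transcripts hold it there.
FTH1, mRNA bases 56 to 85: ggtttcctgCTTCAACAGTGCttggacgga
FTL, mRNA bases 32 to 61: tgtctcttgCTTCAACAGTGTttggacgga
A match describes letters in these windows and shows no binding.

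Several members have close relatives. The read length and the treatment of reads that fit more than 1 gene were not given in the sources used here, so windows of 36 and 75 bases were compared. Of the 36-base windows of the AKR1C2 transcript, 60.2% also occurred in a transcript of another gene, mostly AKR1C1. For AKR1C1 the share was 33.6%, for AKR1C3 15.4%, for FTH1 47.7%, mostly in its pseudogenes, and for FTL 28.2%. It was 4.50% for PRDX1, 3.71% for GCLM, and 0 for TXNRD1, OSGIN1 and EPHX1. At 75 bases it was still 41.3% for AKR1C2 and 30.8% for FTH1, against 9.45% for FTL and 0 for GCLM and PRDX1. Values of the AKR1C genes and of the ferritins are therefore uncertain in level.

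**Figure D1:**
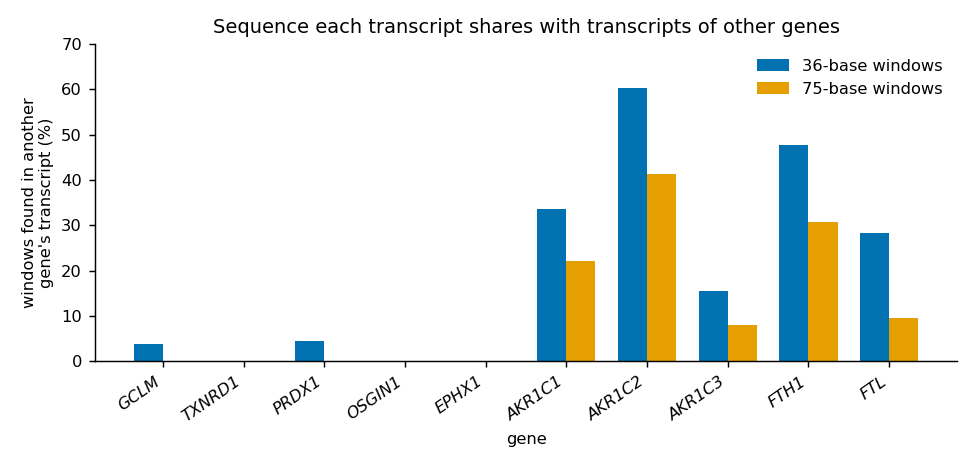
Share of 36-base and 75-base windows of each gene's GENCODE v29 transcript that also occur in a transcript of another gene, in percent (bars, axis from 0). AKR1C2 stands highest at 60.2% of 36-base windows, and TXNRD1, OSGIN1 and EPHX1 are at 0 for both lengths.

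Over the 5 libraries, recovered reads summed to 3641329 (siSET) to 5602224 (siCIP2A), with 1 transcript row per gene. The table covers only part of the genome, so these sums are not the full depth of the libraries. Since each group is a single library, conditions could not be tested, and the values compare libraries. In bulk RNA, fewer cells with a transcript and less of it per cell cannot be told apart. Brackets give 95% exact Clopper-Pearson intervals of the log2 ratio of the 2 libraries, from recovered reads, and cover counting error only. Log2 folds were taken on log2(value + 1). A gene was called where 1 library stood at least 25% above the other (log2 0.32) with an interval that excludes equality. Markers of the line fit its label in part. VIM, CD44 and AXL stood between 13820 and 20866 scaled counts, PGR was listed at 0 in every library, and CDH1 stood between 12.9 and 56.7. The epithelial and luminal genes EPCAM and GATA3 were present at 139 to 282 and 133 to 250 scaled counts. EPCAM was called lower in siSET at -0.57 and in siCIP2A at -1.01 against siNT, and GATA3 in OP449 against PBS at -0.62 and in siCIP2A at -0.60. CD44 was called higher in OP449 at 0.43 and lower in siSET at -0.43 and in siCIP2A at -0.35. Against PBS, EPCAM stood at -0.09 in siSET and at -0.53 in siCIP2A, of which the siCIP2A value was called, and neither CD44 value nor GATA3 in siCIP2A was called. EPCAM was itself called higher in siNT than in PBS, at 0.48. The part of these markers in the results was not tested. SET, CIP2A and NFE2L2 were not analysed here, so the silencing was not checked.

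The members spanned a wide range of levels. Per kilobase of transcript and averaged over the 5 libraries, FTL stood at 41473 scaled counts. FTH1 followed at 7962, TXNRD1 at 6053, PRDX1 at 4231 and EPHX1 at 563, then GCLM at 211, OSGIN1 at 140 and AKR1C3 at 96.3. The ranges over libraries overlapped between FTH1 and TXNRD1, between TXNRD1 and PRDX1, between GCLM and OSGIN1, and between OSGIN1 and AKR1C3. In siSET the order of the last pair turned, with OSGIN1 at 105 and AKR1C3 at 118 per kilobase. FTL was above every other member in each library by this measure.

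**Figure D2:**
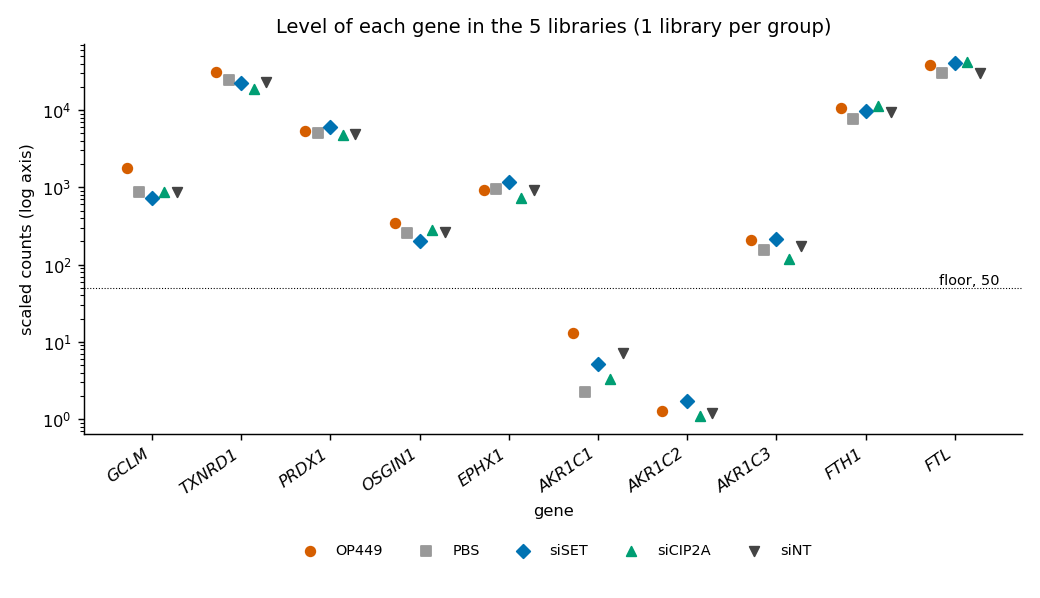
Scaled counts (log axis) of each gene in the 5 libraries, 1 point per library, with the floor of 50 as a dotted line. FTL reaches 42279 in siCIP2A, AKR1C1 stays at or below 12.9, and AKR1C2, listed at 0 in PBS, has no PBS point.

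Between OP449 and PBS, 6 of the 8 measured members were called higher and none lower. They were GCLM, TXNRD1, OSGIN1, AKR1C3, FTH1 and FTL. Over all 6096 genes past the floor, 8.09% were called higher and 6.77% lower. The members' median log2 fold was 0.40, beside 0.02 over all genes. The members were chosen with earlier results of these data known, so these figures only describe the chosen genes. PRDX1 and EPHX1 were the 2 measured members not called.

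GCLM encodes the modifier subunit of glutamate-cysteine ligase, which limits glutathione synthesis. It lies on chromosome 1 from 94352590 to 94375012 (hg19, as are all positions of transcripts here). It had 1777 scaled counts in OP449 and 868 in PBS, from 1379 and 766 reads. In the siRNA libraries it had 734 in siSET, 875 in siCIP2A and 860 in siNT. OP449 alone stood apart, and the other 4 libraries lay within 141 scaled counts of each other. The log2 fold of OP449 over PBS was 1.03 [0.90 to 1.16], a ratio of 2.05, the 17th highest of 6096 genes. GCLM was the only member at 2-fold or more in this comparison, which 0.295% of all genes reached upward.

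TXNRD1, the cytosolic selenoenzyme that reduces thioredoxin, spans chromosome 12 from 104680727 to 104744058. It had 31519 scaled counts in OP449 and 24417 in PBS, a log2 fold of 0.37 [0.34 to 0.39]. Its 5 transcript rows gave nearly the same fold, between 0.36 and 0.37. These rows belong to the same gene and may count the same reads, so their likeness is no separate support. In siSET it had 22461, in siCIP2A 18907 and in siNT 22965 scaled counts. OP449 was the highest and siCIP2A the lowest of the 5. The siCIP2A value lay at -0.28 [-0.31 to -0.25] against siNT, which was not called. Against PBS it was called lower, at -0.37 [-0.40 to -0.34], as were 9.49% of 6101 genes, while 10.3% were called higher.

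PRDX1, a peroxidase that uses thioredoxin, spans chromosome 1 from 45976708 to 45987609. It had 5370 scaled counts in OP449 and 5042 in PBS, 6085 in siSET, 4734 in siCIP2A and 4873 in siNT. It was the steadiest member, with a log2 range of 0.36 over the 5 libraries. siSET was the highest, at 0.32 [0.26 to 0.39] over siNT, a ratio of 1.249 that falls just short of the call. Against siCIP2A, siSET was called higher for PRDX1, at 0.36 [0.30 to 0.43].

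OSGIN1, a growth inhibitor induced by oxidative stress, spans chromosome 16 from 83986827 to 83999938. It had 349 scaled counts in OP449 and 256 in PBS, a log2 fold of 0.45 [0.19 to 0.71] on 271 and 226 reads. It had 204 in siSET, 284 in siCIP2A and 268 in siNT. siSET was the lowest library, called lower than siNT at -0.39 [-0.73 to -0.07] from 119 and 226 reads. It was also called lower than siCIP2A, at -0.48 [-0.81 to -0.16]. Against PBS the siSET value was -0.33 [-0.66 to -0.01], also called lower, as were 10.3% of 6084 genes, while 8.63% were called higher.

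EPHX1, the microsomal hydrolase that opens epoxides, spans chromosome 1 from 225997797 to 226033260. It had 913 scaled counts in OP449 and 951 in PBS, with a log2 fold of -0.06 [-0.20 to 0.09]. It had 1160 in siSET, 729 in siCIP2A and 922 in siNT. The siRNAs lay on opposite sides of their shared control, siSET called higher at 0.33 [0.18 to 0.48] and siCIP2A called lower at -0.34 [-0.49 to -0.19]. Against PBS, siSET stood at 0.29 [0.14 to 0.43] and was not called, and siCIP2A was called lower at -0.38 [-0.53 to -0.24]. The EPHX1 call in siSET was also lost under 2 other scalings, at 0.32 by a median of ratios and at 0.30 by upper quartiles. Directly, siSET stood at 0.67 [0.51 to 0.83] over siCIP2A, a ratio of 1.59.

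The AKR1C genes sit together on chromosome 10. AKR1C1, a 20-alpha-hydroxysteroid dehydrogenase from 5005454 to 5020157, had 10 reads in OP449 and 2 in PBS, 3 in siSET, 3 in siCIP2A and 6 in siNT. The ratio of OP449 to PBS was 5.68, with an interval of 1.21 to 53.3, far below the floor. AKR1C2, a 3-alpha-hydroxysteroid dehydrogenase from 5031966 to 5060207, had 1 read in OP449 and 0 in PBS, and 1 in siSET, siCIP2A and siNT each. Since a count of 0 allows up to 3 reads (3.40 scaled counts in PBS), no fold is given for AKR1C2. So AKR1C1 and AKR1C2 were at or near the limit of detection in all 5 libraries, with the uncertainty from shared sequence given above.

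AKR1C3, which makes testosterone from androstenedione and reduces prostaglandin D2, was the measured member of the 3. It spans 5136568 to 5149876 on chromosome 10. It had 207 scaled counts in OP449 and 154 in PBS, a log2 fold of 0.43 [0.09 to 0.77] on 161 and 136 reads. It had 214 in siSET, 119 in siCIP2A and 175 in siNT. siCIP2A was the lowest, called lower than siNT at -0.55 [-0.93 to -0.19], while siSET stood at 0.28 [-0.07 to 0.64] and was not called. Directly, siSET was 1.79-fold above siCIP2A, at 0.84 [0.46 to 1.23], the 85th highest of 6098 genes. Against PBS the calls differed, with siSET called higher at 0.47 [0.11 to 0.83] and siCIP2A at -0.37 [-0.75 to 0.00] not called.

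FTH1, the ferritin heavy chain with the iron-oxidizing centre, spans chromosome 11 from 61731759 to 61735132. It had 10765 scaled counts in OP449 and 7758 in PBS, a log2 fold of 0.47 [0.43 to 0.52]. It had 9821 in siSET, 11222 in siCIP2A and 9358 in siNT. PBS was the lowest of the 5, and the control siNT itself stood at 0.27 [0.22 to 0.32] over PBS. Against siNT the siSET value was 0.07 [0.02 to 0.12] and the siCIP2A value 0.26 [0.22 to 0.30], neither called. Against PBS they were 0.34 and 0.53 and both were called higher, so the choice of control decides the call for FTH1.

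FTL, the light chain, on chromosome 19 from 49468566 to 49470135, gave the most reads of the members in each library, 23745 to 38289. It had 38805 scaled counts in OP449 and 30492 in PBS, a log2 fold of 0.35 [0.32 to 0.37]. It had 40619 in siSET and 42279 in siCIP2A, against 29870 in siNT. The folds over siNT were 0.44 [0.42 to 0.47] in siSET and 0.50 [0.48 to 0.52] in siCIP2A, and 0.41 and 0.47 over PBS. With siNT as the siRNA control, FTL was the 1 member called higher in all 3 treated libraries. With PBS as control throughout, FTH1 was called higher in all 3 as well, at 0.47 in OP449, 0.34 in siSET and 0.53 in siCIP2A. The share of all genes called higher in all 3 was not computed. For FTL the controls differed by -0.03 [-0.05 to -0.00] for siNT over PBS. For FTL and FTH1, and for no other member, the 3 treated libraries all stood above both controls. Of 6093 genes, 10.6% had that pattern and 7.11% the opposite one, and nothing particular to the members is read from 2 of 8.

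**Figure D3:**
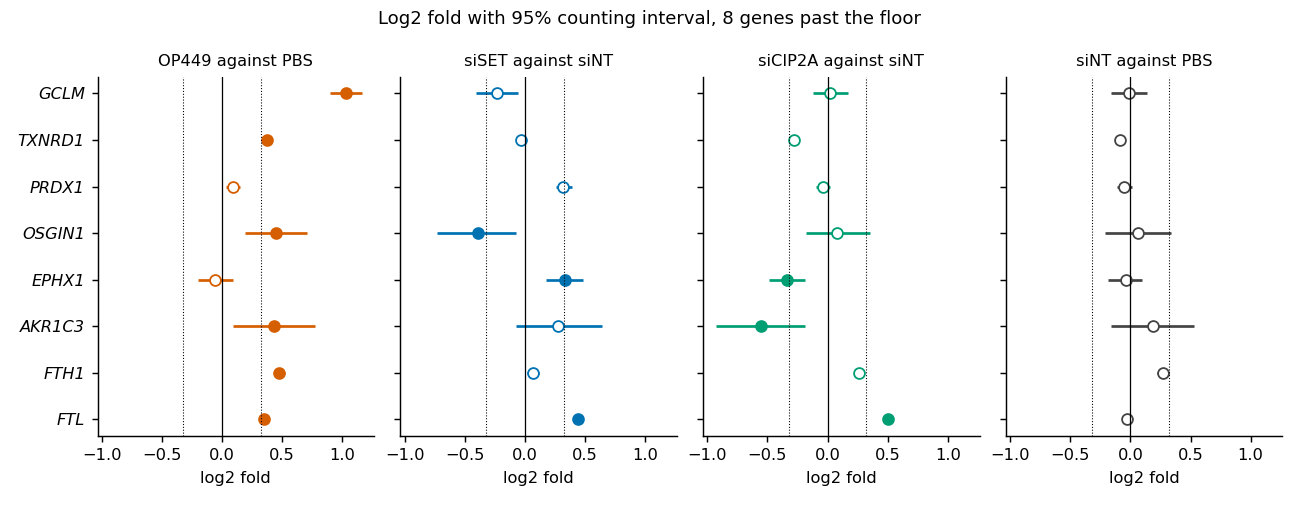
Log2 fold (horizontal axis) of the 8 genes past the floor in 4 comparisons, with 95% counting intervals as lines, hidden by the point where narrow. Filled points are called at 25% or more (dotted lines), as for 6 genes in OP449 against PBS and for none in siNT against PBS.

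Between siSET and siNT, FTL and EPHX1 were called higher and OSGIN1 lower, 3 of 8 measured members. With PBS as control, FTL, FTH1 and AKR1C3 were called higher and OSGIN1 lower, and EPHX1 was not called. Over 6084 genes, 9.47% were called higher and 11% lower than siNT, and 8.63% higher and 10.3% lower than PBS. The members' median log2 fold over siNT was 0.18, beside 0.01 over all genes. Between siCIP2A and siNT, FTL was called higher and AKR1C3 and EPHX1 lower, against 10% called higher and 8.95% lower of 6102 genes. The median there was -0.01, beside 0.02. With PBS as control, FTL and FTH1 were called higher in siCIP2A and TXNRD1 and EPHX1 lower, and AKR1C3 was not called. Of 6101 genes, 10.3% were called higher and 9.49% lower in siCIP2A than in PBS. GCLM stood at -0.23 [-0.41 to -0.06] in siSET and at 0.02 [-0.12 to 0.17] in siCIP2A against siNT, neither called. The siRNA comparisons share the siNT library.

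Set directly against each other, siSET stood above siCIP2A for AKR1C3, PRDX1 and EPHX1 and below it for OSGIN1. Of 6098 genes, 10.1% were called higher and 12.4% lower in that comparison. TXNRD1 stood at 0.25 [0.22 to 0.28] and GCLM at -0.25 [-0.43 to -0.08], neither called. In the comparison of the control libraries, siNT over PBS, none of the 8 members was called in either direction, against 6.99% and 6.93% of 6076 genes. Of the 8, FTH1 had the largest absolute value there.

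Other genes of the pathway were read from 6 lists. The shares over all genes to set beside the counts of each list are as follows. In OP449 against PBS, 8.09% were called higher and 6.77% lower. Against siNT, the shares were 9.47% and 11% in siSET, and 10% and 8.95% in siCIP2A. Over PBS, they were 8.63% and 10.3% in siSET, and 10.3% and 9.49% in siCIP2A. Of 34 further NRF2 target symbols, 21 were in the table and 17 passed the floor in OP449 and PBS. Of these, 4 were called higher, 2 lower and 11 neither, with a median log2 fold of -0.10. The haem transporter gene SLC48A1 stood at 143 scaled counts in OP449 and 82.8 in PBS, at 0.78 [0.35 to 1.24]. TRIM16, a ubiquitin ligase gene, stood at 0.36, and its paralogue TRIM16L and the microsomal glutathione transferase gene MGST1 were also called higher, at 0.35 and 0.34. ABCC3, an export pump gene, was called lower at -0.36, and so was GSTM4 at -0.53. NQO1, the quinone reductase and a much used NRF2 marker, stood at 0.29 [0.21 to 0.36] and was not called.

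In siSET against siNT, 5 of 18 were called higher and none lower, with a median of 0.22. They included GSTM3 at 0.43, GSTM1 at 0.39, GSTM2 at 0.64 and the haem synthesis gene FECH at 0.37. Over PBS, 4 genes of the list were called higher and 1 lower in siSET. GSTM1, GSTM2 and FECH were called higher over PBS too, and GSTM3 at 0.27 and GSTM4 at 0.03 were not. GSTM genes are close relatives, and reads that fit more than 1 of them could make single values uncertain. The sequence they share was not measured here. In siCIP2A against siNT, 2 of 18 were called higher and 1 lower, with a median of -0.08. Over PBS, 2 genes of the list were called higher and 3 lower in siCIP2A. NQO1 was the 1 called lower against siNT, with 2069 scaled counts in siCIP2A against 3260 and a log2 fold of -0.66 [-0.74 to -0.57]. BLVRB, a flavin and biliverdin reductase gene, was called higher at 0.48, and HTATIP2 at 0.46. Over PBS, NQO1 at -0.57 and BLVRB at 0.36 were also called, and HTATIP2 at 0.25 was not. NQO1 stood at -0.03 [-0.12 to 0.05] in siSET, and siSET over siCIP2A was 0.63 [0.53 to 0.72].

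Of 16 regulator symbols of NRF2, 7 were in the table and 6 passed the floor. KEAP1 stood at 0.16 [0.05 to 0.28] in OP449 against PBS, at 0.04 in siSET and at -0.10 in siCIP2A against siNT. MAFG, a small MAF partner of NRF2, stood at -0.43 [-0.54 to -0.31] in siCIP2A and was called lower. PALB2, whose protein binds KEAP1, was called higher at 0.38 in OP449 and at 0.40 in siCIP2A. In siCIP2A neither call was made over PBS, where MAFG stood at -0.28 and PALB2 at 0.23. The median of the list was 0.18 in OP449, -0.07 in siSET and -0.14 in siCIP2A.

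Of 30 symbols of iron handling, 17 were in the table and 14 passed the floor. In OP449 none was called higher and 1 lower, the ferrireductase gene STEAP3, at 911 scaled counts against 1249 in PBS and -0.46 [-0.59 to -0.32]. In siSET, ABCB10, a mitochondrial transporter of the haem pathway, stood at 262 against 533 in siNT, at -1.02 [-1.30 to -0.76]. NUBP1, of cytosolic iron-sulphur assembly, was also called lower at -0.50 and GLRX5 called higher at 0.35. In siCIP2A, SLC11A2, the iron importer DMT1, stood at 368 against 708 in siNT, at -0.94 [-1.14 to -0.75]. IREB2, an iron regulatory protein that binds the ferritin element, was called lower in siCIP2A at -0.34 [-0.48 to -0.20], and so was NUBP1 at -0.41. Over PBS, IREB2 stood at -0.05 in siCIP2A and GLRX5 at 0.05 in siSET, neither called, and siNT lay at 0.29 over PBS for IREB2 and at -0.30 for GLRX5. ABCB10 at -1.01, SLC11A2 at -0.73 and NUBP1 at -0.42 in siSET and -0.33 in siCIP2A were called lower over PBS too. NCOA4, the receptor that carries ferritin to lysosomes, was called in none of these 3 comparisons, at 0.22, 0.15 and -0.27.

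The thioredoxin and glutathione lists add other genes of the systems to which TXNRD1, PRDX1 and GCLM belong. The genes measured in them include neither thioredoxin itself (TXN) nor GCLC, the catalytic subunit of glutamate-cysteine ligase. Of 12 measured thioredoxin system genes, 1 was called higher in OP449, 3 in siSET and 4 in siCIP2A, and 0, 1 and 1 lower. For this list and the glutathione list, as for the other lists, the shares over all genes called higher were 8.09%, 9.47% and 10%. Those called lower were 6.77%, 11% and 8.95%. Over PBS, 1 thioredoxin system gene was called higher and 1 lower in siSET, and 1 and 2 in siCIP2A. TXNIP, which binds and inhibits thioredoxin, was called higher in OP449 against PBS and in siSET and siCIP2A against siNT, at 0.72, 0.73 and 0.80. TXNDC12 was called higher in siSET at 0.94 and in siCIP2A at 0.76, and the mitochondrial PRDX3 in siSET at 0.38. The siNT library was itself called lower than PBS for TXNDC12, at -0.74, with 424 scaled counts against 707. Over PBS, TXNDC12 stood at 0.20 in siSET and 0.02 in siCIP2A, and PRDX3 at 0.14 in siSET, none called, while TXNIP was called at 0.60 and 0.67. SESN2 in siSET was called lower at -0.57, and GLRX2 in siCIP2A at -0.54. TXNDC17 was called higher in siCIP2A against siNT at 0.34, and over PBS it stood at 0.16 and was not called. Of glutathione genes, 3 of 11 were called higher and 2 lower in OP449, 5 of 13 and 1 in siSET, and 1 of 12 and 1 in siCIP2A. Some of these genes are also on the list of NRF2 targets and were counted there. They include MGST1 and GSTM4, called in OP449, and GSTM1, GSTM2, GSTM3 and GSTM4, called in siSET. Over PBS, 3 glutathione genes were called higher and 2 lower in siSET, and 1 and 0 in siCIP2A. CHAC1, which degrades glutathione, stood at 0.82 in OP449 from 85.0 against 47.6 scaled counts, at -0.93 in siSET and at -1.0 in siCIP2A. For CHAC1, siNT was called higher than PBS at 0.66, and over PBS the siRNA values were -0.27 and -0.33, below the floor and not called. Its relative CHAC2 was called higher in OP449 at 0.73, and GSTZ1 lower at -0.42. MGST3 was called higher in siSET at 0.43 and in siCIP2A at 0.54. Of 3 other measured aldo-keto reductases, AKR1A1 was called lower in OP449 at -0.38, and KCNAB2, a potassium channel subunit of that fold, higher in siSET at 0.36 and in siCIP2A at 0.59.

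**Figure D4:**
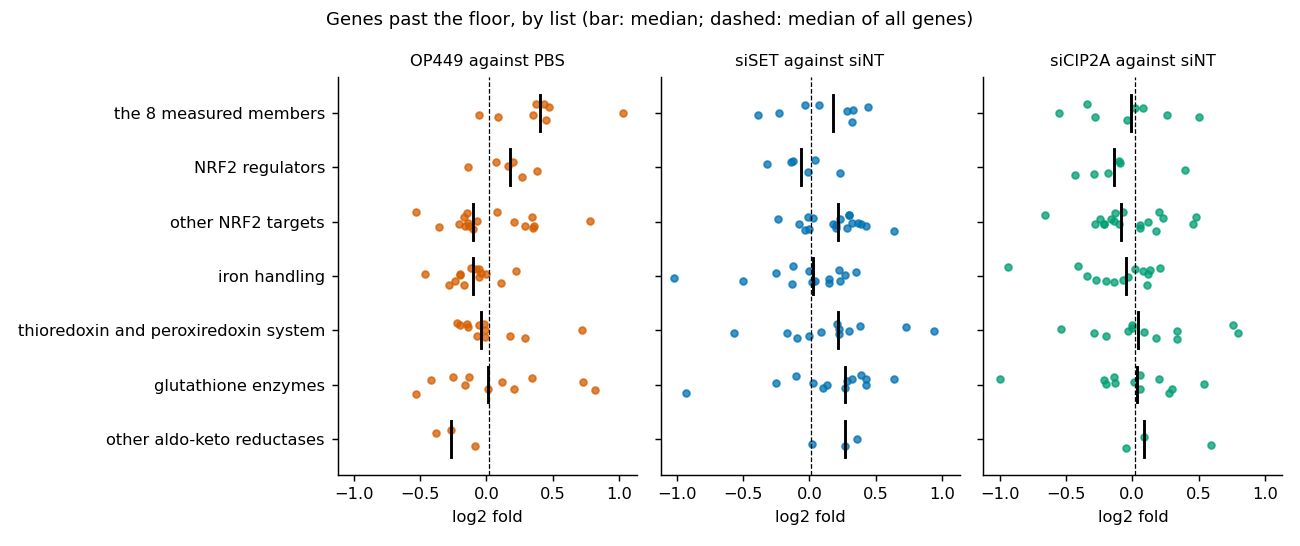
Log2 fold (horizontal axis) of every gene past the floor in the members and the 6 lists, 1 point per gene, with list medians as bars and the median of all genes as a dashed line. In OP449 the members' median of 0.40 lies above that of each list, of which NRF2 regulators come nearest at 0.18. Members and lists were chosen with earlier results of these data known, so this order only describes the chosen genes.

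Likeness to other genes was measured as the Euclidean distance between profiles of log2(value + 1) over the 5 libraries, each centred on its mean. It was taken for the 3 members with the widest range, over 4704 other genes with a mean of at least 200. Nearest to GCLM, whose log2 range was 1.27, were CPT1A, of fatty acid import into mitochondria, at a distance of 0.33, the chaperone gene CHORDC1 at 0.34 and the stress factor gene DDIT3 at 0.36. CPT1A had 1653 scaled counts in OP449 and 849 in PBS, and 890 to 920 in the siRNA libraries. Among the genes nearest to AKR1C3 were APPL2 at 0.18 and C1orf124 at 0.18. Nearest to OSGIN1 were TRIM47 at 0.09, PAFAH1B2 at 0.10 and SAFB2 at 0.11.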

How the data were processed

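The authors' deposited signal values are scaled counts per RefSeq transcript. The submitters' processing notes name hg19, CASAVA and Bowtie 1.0.0 without their roles, and the counting program, strand use and normalization were not given there. Columns were matched to libraries by name. In each library 100% of values were whole multiples of the smallest, within 0.001 reads, so reads were recovered. The symbols of 15 rows stored as dates were restored by accession. The table of 16383 rows covers chromosomes 1, 10 to 19 and 2 in part, and genes elsewhere were not analysed here.

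Folds used a pseudocount of 1 and a floor of 50 scaled counts over the libraries compared. Intervals came from scipy 1.17.1, and calls were checked on simulated counts with 2-fold changes set. Those counts held only the counting error that the intervals assume. The check therefore says nothing of variation between libraries or of calls near the threshold. Since each group has 1 library, no test was made. Named genes were all 10 members and, per list and comparison, up to 4 called genes with the largest absolute log2 fold. The comparisons used for naming were OP449 against PBS, and siSET and siCIP2A against siNT. MGST1, TRIM16L, NQO1 in OP449 and siSET, KEAP1 and NCOA4 were named after their values were seen. Of the genes named for likeness, 1 is not reported here. Members and lists were chosen with earlier results of these data known. Transcript lengths came from GENCODE v29, matched by accession for all 10 members.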

Additional observations from a re-analysis of the deposited data

How the results depend on the processing

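No paired analysis was possible because each group has 1 library, and no library could be left out. With a fold of at least 1.5, the members called higher numbered 1 in OP449 against PBS (6 at the call rule used), 0 in siSET and 0 in siCIP2A against siNT, and the members called lower 0 in siSET against siNT, 0 in siCIP2A against siNT and 0 in siSET against siCIP2A. Scaling by upper quartiles, or by a median of ratios, left 1 member called higher in siSET against siNT, EPHX1 losing its call. With PBS as control, 2 members (FTH1 and FTL) were called higher in siCIP2A, beside 10.3% of 6101 genes. A floor of 200 left 1 member called lower in siCIP2A against siNT, since the mean of AKR1C3 lies below it. The share of all genes called was not computed at 1.5-fold, under the other scalings or at a floor of 200. Member counts under these settings therefore have no background beside them. The other 94 counts under an alternative stayed within 1.5 times. A count can stay while its members change. With PBS as control, TXNRD1 and EPHX1 were called lower in siCIP2A, in place of AKR1C3 and EPHX1. Settings that change only the fold needed for a call, the demand on the interval or the floor leave a fold as it is. Folds under them could not move, and they are included in the numbers that stayed. Of 458 recomputed member folds, 448 stayed within the counting interval, 10 moved beyond it and 0 of the called ones changed sign. Of the folds of other named genes, 1734 stayed within it, 34 moved and 0 reversed. All 34 moved with PBS as control, among them GSTM3 in siSET, at 0.27 in place of 0.43, and GSTM4, at 0.03 in place of 0.32. Depth limits AKR1C1 and AKR1C2, which had 10 reads or fewer in each library.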
